A study of Homo sapiens with 4 samples.

Results

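The genes described here are 10 targets of the endoplasmic reticulum (ER) unfolded protein response: HSPA5, HSP90B1, XBP1, DNAJB9, HERPUD1, SDF2L1, PDIA4, CRELD2, MANF and HYOU1. They were chosen by symbol as genes driven by the transcription factors ATF6 and XBP1, and all 10 were found among the 58735 genes of the deposited tables. Transcript levels were measured by RNA-seq of total RNA in 4 libraries labelled as the liver cancer line Huh7. In 2 of them the cells carried a control hairpin RNA (shCtrl) and in 2 a hairpin RNA against NME7 (shNME7), a nucleoside diphosphate kinase family gene. The hairpin sequences, the time after transduction and whether cells were pooled or cloned were not given in the sources used here. Separate cultures are not stated for the replicates, so p-values reflect the spread among these 4 libraries, which may be technical only.

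The unfolded protein response adjusts the folding capacity of the ER to the load of new secretory and membrane proteins. Its 3 sensors are IRE1 (gene ERN1), ATF6 and PERK (gene EIF2AK3). IRE1 splices XBP1 mRNA into a form that encodes an active transcription factor, and ATF6 is cut in the Golgi to release another. Together these switch on chaperones and degradation factors, while PERK acts through eIF2 alpha and the transcription factor ATF4, which can also be raised by amino acid shortage without ER stress. Liver cells secrete much protein and keep this system active. The question here was whether ATF6 and XBP1 targets stood as low in shNME7 as the ATF4 targets did, or stayed level.

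The label Huh7 was not borne out by liver marker genes. Of 10 hepatocyte-type markers, none reached a mean of 1 FPKM, the highest single value was 0.0848 FPKM, and APOA1, APOB and FGB were at 0 in every library. The summed level of the 10 was 0.0564 to 0.106 FPKM in shCtrl against 0.110 to 0.136 in shNME7. ALB and AFP, which Huh7 cells are known to express, had a highest value of 0.0174 and 0.0190 FPKM. The fibroblast markers COL3A1, LUM and COL1A1 stood at up to 76.6, 14.5 and 10.8 FPKM, 4 of 6 markers reached 1 FPKM, and the sum of the 6 overlapped between the groups, at 92.1 to 103 FPKM in shCtrl against 97.3 to 98.7 in shNME7. Leukocyte markers summed to at most 0.277 FPKM, and of 5 endothelial markers 1, CDH5, reached 1 FPKM. The endothelial markers summed to 2.03 to 2.37 FPKM in shCtrl against 2.87 to 3.54 in shNME7, without overlap, and CDH5 had a log2 difference of 0.38. The cells are therefore called by their label only, and the part of this in the results below was not tested. For NME7, shCtrl 1 and 2 gave 3.64 and 3.93 FPKM and shNME7 1 and 2 gave 0.835 and 0.626, so the hairpin labels fit the targeted gene. Library totals were 14877906 to 16991397 recovered fragments, and the share of mitochondrial fragments overlapped between the groups (4.76% to 5.92% in shCtrl, 4.24% to 6.59% in shNME7).

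ATF6 and XBP1 act through short promoter elements. The promoters are shown first because 7 of 10 members held such an element, and those 7 had differences of both signs. The windows, from RefSeq on GRCh38.p14, run from 250 bases before to 50 after the gene's start, and all 10 members matched a window. Both strands were searched for the ER stress response element (ERSE, CCAAT and CCACG with 9 free bases between them), its second form (ERSE-II, ATTGG and CCACG with 1 free base between them), the unfolded protein response element (UPRE, TGACGTGG) and the composite element bound by C/EBP and ATF4 (CARE, TGATG and AA with 1 free base between them). ERSE was found in 4 members, HSPA5, HSP90B1, XBP1 and CRELD2, and in 0.0773% of all 34943 windows. ERSE-II was found in 3 members, HERPUD1, SDF2L1 and HYOU1, and in 0.0544% of windows. So 7 of 10 members held 1 of these 2 elements, against 0.132% of windows, a description of a list that was picked as targets of the factors that use them. In the stretches below, read 5′ to 3′ on the gene's strand, capitals mark the fixed letters of ERSE, ERSE-II and CARE. Positions are counted back from the gene's start.
HSPA5 (chr9:125241379-125241421, minus strand, positions -78 to -36, ERSE): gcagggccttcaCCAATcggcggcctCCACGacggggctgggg
XBP1 (chr22:28800591-28800633, minus strand, positions -64 to -22, ERSE): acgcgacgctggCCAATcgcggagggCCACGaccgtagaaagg
CRELD2 (chr22:49918542-49918584, plus strand, positions -92 to -50, ERSE on the other strand): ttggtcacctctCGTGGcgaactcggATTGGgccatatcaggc
HSP90B1 (chr12:103930216-103930234, plus strand, positions -194 to -176, ERSE): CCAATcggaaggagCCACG
HSP90B1 (chr12:103930321-103930339, plus strand, positions -89 to -71, ERSE on the other strand): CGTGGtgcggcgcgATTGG
SDF2L1 (chr22:21642102-21642136, plus strand, positions -200 to -166, ERSE-II on the other strand): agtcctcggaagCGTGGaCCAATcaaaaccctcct
HYOU1 (chr11:119057262-119057402, minus strand, positions -197 to -57, 2 ERSE-II on the other strand): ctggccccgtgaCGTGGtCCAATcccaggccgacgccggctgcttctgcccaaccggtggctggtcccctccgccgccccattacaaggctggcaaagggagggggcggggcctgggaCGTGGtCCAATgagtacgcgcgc
HERPUD1 (chr16:56931954-56932047, plus strand, positions -188 to -95, CARE on the other strand and then ERSE-II): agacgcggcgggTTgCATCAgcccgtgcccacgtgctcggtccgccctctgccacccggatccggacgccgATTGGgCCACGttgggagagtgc

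HERPUD1 was the 1 member with a CARE match, which 3.62% of all windows hold, and it lies 51 bases upstream of the ERSE-II. HYOU1 was the 1 member with a UPRE match (0.730% of windows), which overlaps its upstream ERSE-II. For HSP90B1 only the sites themselves are shown, since another annotated first exon covers them. None of these letters was found in the windows of DNAJB9, MANF and PDIA4, which says nothing about elements elsewhere.

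The 10 members had differences of both signs. HERPUD1, XBP1 and DNAJB9 stood lower in both shNME7 libraries, MANF and CRELD2 stood higher in both, SDF2L1 had a higher mean through 1 library, and HSPA5, HSP90B1, PDIA4 and HYOU1 had mean differences between -0.13 and -0.02 (log2). In bulk RNA, fewer cells with a transcript and less of it per cell cannot be told apart. The median difference (shNME7 minus shCtrl) over the 10 was -0.04 on the log2(FPKM + 1) scale, beside 0.01 over all 12866 tested genes, and 7 had a lower mean beside 47.8% of tested genes. The members spread more widely than the background, with a median absolute difference of 0.32 beside 0.14 for all tested genes. Their median level was also higher, at 31.8 FPKM beside 6.79 for all tested genes. This scale understates the change of low genes, and the part of that in the wider spread was not tested. No member passed limma-trend with Benjamini-Hochberg adjustment over all genes, where 0 of 12866 genes (0%) were called. limma-voom on recovered fragments called 20 of 15112 genes (0.132%) and 0 members. NME7, the targeted gene, was itself not called by limma-trend (log2 difference -1.47, adjusted p 0.310). It was called by limma-voom (log2 difference -2.39, adjusted p 0.000549). At an unadjusted p under 0.05 there were 2 members in limma-trend (HERPUD1 and MANF, beside 6.68% of tested genes) and 4 in limma-voom (also XBP1 and CRELD2, beside 8% of genes, of which 1209 passed). The groups were separate, with shNME7 lower, in 4 members, beside 18.4% of tested genes, and separate with shNME7 higher in 2, beside 17.8%. With 2 libraries against 2, an exact permutation test of a single gene cannot go below a two-sided p of 0.333.

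**Figure D1:**
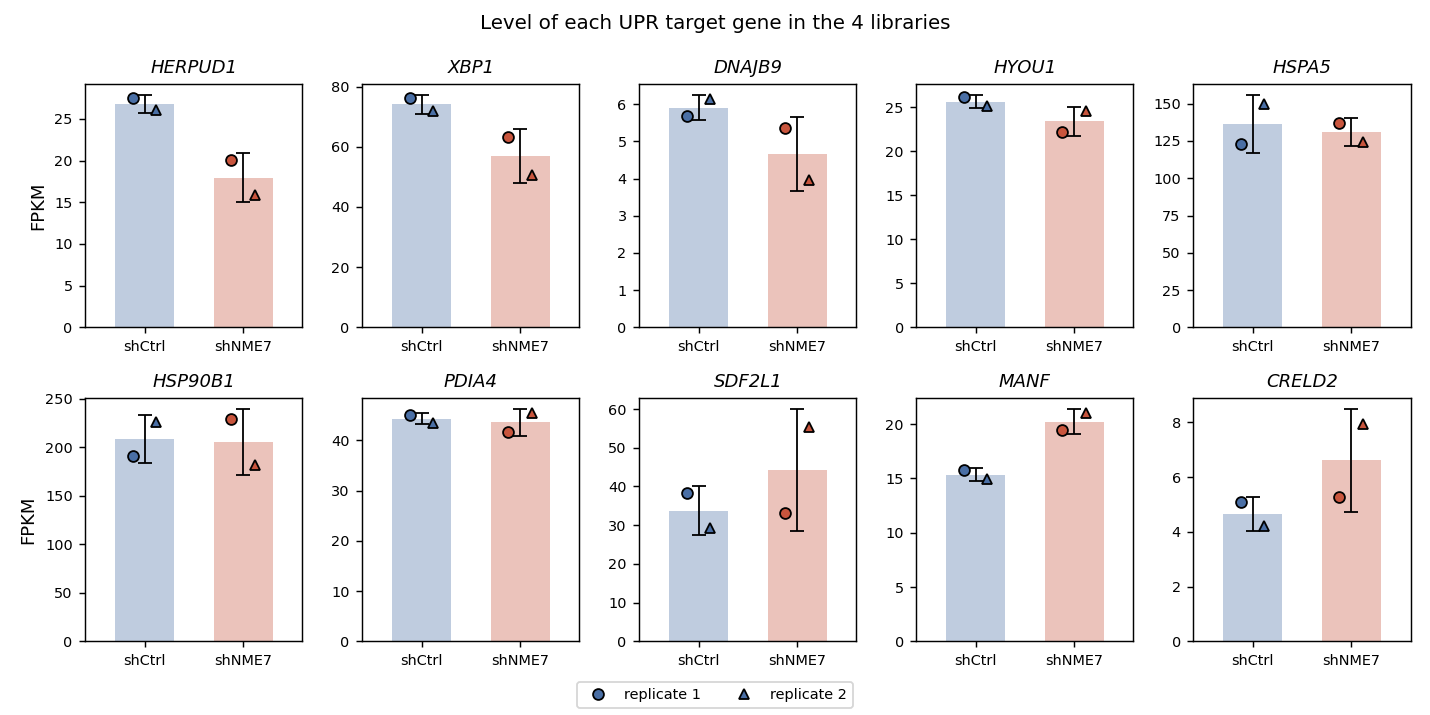
FPKM (vertical axis, from 0) of each of the 10 genes in the 2 shCtrl and 2 shNME7 libraries; bars are group means, error bars SD (n = 2), circles replicate 1 and triangles replicate 2. HERPUD1 and XBP1 sit lower in both shNME7 libraries and MANF higher in both, while the high mean of SDF2L1 comes from 1 library at 55.3 FPKM.

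Levels per gene length spanned 39.1-fold, and every member was well covered, with at least 191 fragments in each library. Over the 4 libraries the order of mean levels was HSP90B1 (207 FPKM), HSPA5 (134), XBP1 (65.5), PDIA4 (43.9), SDF2L1 (39.0), HYOU1 (24.5), HERPUD1 (22.4), MANF (17.8), CRELD2 (5.63) and DNAJB9 (5.29). The 4-library ranges of PDIA4 and SDF2L1, HYOU1 and HERPUD1, HERPUD1 and MANF, and CRELD2 and DNAJB9 overlapped, and those of the other neighbours in this order did not. The 2 most abundant members lay at the 99.1 and 98.2 percentile of mean level among tested genes, and DNAJB9 and CRELD2 at the 42.2 and 44.1 percentile.

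HSPA5 encodes BiP, the ER Hsp70 chaperone that binds unfolded chains and holds the sensors inactive, and it is the usual readout of ER stress. Its level was 123 and 150.0 FPKM in the controls (shCtrl 1 and 2) against 137 and 124 in shNME7 1 and 2. The groups overlapped, and the control libraries themselves spanned the shNME7 values. The means were 136 ± 19.3 and 131 ± 9.28 (SD, n = 2), a log2 difference of -0.05 (SE 0.16, 95% interval -0.45 to 0.34, limma-trend adjusted p 0.946). HSP90B1, the ER Hsp90 chaperone GRP94, stood at 191 and 226 FPKM in shCtrl against 229 and 181 in shNME7. Its highest and its lowest value were both in shNME7, and the log2 difference was -0.03 (SE 0.18, 95% interval -0.47 to 0.41). The ratio of HSP90B1 to HSPA5 within a library stayed between 1.46 and 1.67 in all 4.

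PDIA4, a protein disulfide isomerase that helps form and rearrange disulfide bonds, was the steadiest member. It stood at 45.1 and 43.5 FPKM in shCtrl against 41.7 and 45.4 in shNME7, a log2 difference of -0.02 (SE 0.14, 95% interval -0.35 to 0.30). HYOU1, an ER Hsp110-type chaperone and exchange factor for BiP, stood at 26.2 and 25.1 FPKM in shCtrl against 22.2 and 24.6 in shNME7. Both shNME7 values were the lower ones, by little: the log2 difference was -0.13 (SE 0.14, 95% interval -0.46 to 0.20, limma-trend adjusted p 0.857). The lower bounds of these 4 intervals lay between -0.47 and -0.35 and the upper ones between 0.20 and 0.41, so the data do not show that the groups were equal. With 1 library left out, HSPA5 turned to 0.09 without shCtrl 2 and 0.02 without shNME7 2, HSP90B1 to 0.10 and 0.14, PDIA4 to 0.00 without shCtrl 1 and 0.04 without shNME7 1, and HYOU1 to -0.06 without shNME7 1.

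HERPUD1, a membrane protein that organises the ER-associated degradation complex, had the largest difference of the 10. Controls 1 and 2 gave 27.5 and 26.0 FPKM, whereas shNME7 1 and 2 gave 20.0 and 15.8. Both shNME7 libraries were below both controls, with a gap wider than the spread within either group. Mean levels of 26.8 ± 1.05 and 17.9 ± 2.95 FPKM put shNME7 1.49-fold lower, with a log2 difference of -0.56 (SE 0.16, 95% interval -0.95 to -0.18). The limma-trend adjusted p over all genes was 0.690 and the limma-voom one 0.323, and only 1.66% of tested genes had a difference as low. XBP1, the transcription factor gene, stood at 76.2 and 71.9 FPKM in shCtrl against 63.2 and 50.6 in shNME7, a log2 difference of -0.38 (SE 0.16, limma-trend adjusted p 0.748) that was -0.23 without shNME7 2. FPKM per gene do not tell spliced from unspliced XBP1 mRNA, so IRE1 activity is not read from this value. DNAJB9, the J-domain co-chaperone ERdj4 of BiP, stood at 5.67 and 6.14 FPKM in shCtrl against 5.37 and 3.96 in shNME7, a log2 difference of -0.30 (SE 0.17, limma-trend adjusted p 0.795). Its shNME7 1 value lay just under the controls, so most of the difference came from shNME7 2, and without that library it was -0.12.

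Among the members with a higher mean, MANF was the most even. MANF, a small secreted factor that is retained in the ER and protects stressed cells, stood at 15.8 and 14.9 FPKM in shCtrl against 19.4 and 21.1 in shNME7. Both shNME7 libraries lay above both controls by more than the spread within either group, at 20.2 ± 1.14 against 15.4 ± 0.629 FPKM, 1.32-fold higher. The log2 difference was 0.38 (SE 0.13, 95% interval 0.05 to 0.70), with a limma-trend adjusted p of 0.728 and a limma-voom one of 0.587, and it lay between 0.30 and 0.45 in the 10 alternatives and the 7 added after seeing the data. CRELD2, an ER-resident protein with epidermal growth factor-like domains, stood at 5.10 and 4.21 FPKM in shCtrl against 5.28 and 7.93 in shNME7. The shNME7 1 value barely cleared shCtrl 1, and the log2 difference of 0.41 (SE 0.20, limma-trend adjusted p 0.795) was 0.16 without shNME7 2. SDF2L1, a partner of the BiP and ERdj3 chaperone complex, stood at 38.3 and 29.3 FPKM in shCtrl against 33.1 and 55.3 in shNME7. Here 1 shNME7 library lay between the controls and the other far above, and the log2 difference of 0.35 (SE 0.26) became -0.02 without shNME7 2. Without shNME7 1, limma-trend called 3 members, HERPUD1 at -0.72 (adjusted p 0.0216), SDF2L1 at 0.71 (0.0327) and CRELD2 at 0.66 (0.0325), beside 632 of 12866 genes (4.91%) called in the same fit, where the lone shNME7 2 is assumed to vary like the controls. limma-voom without shNME7 1, added after seeing the data, called the same 3 members, beside 420 of 15112 genes (2.78%).

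**Figure D2:**
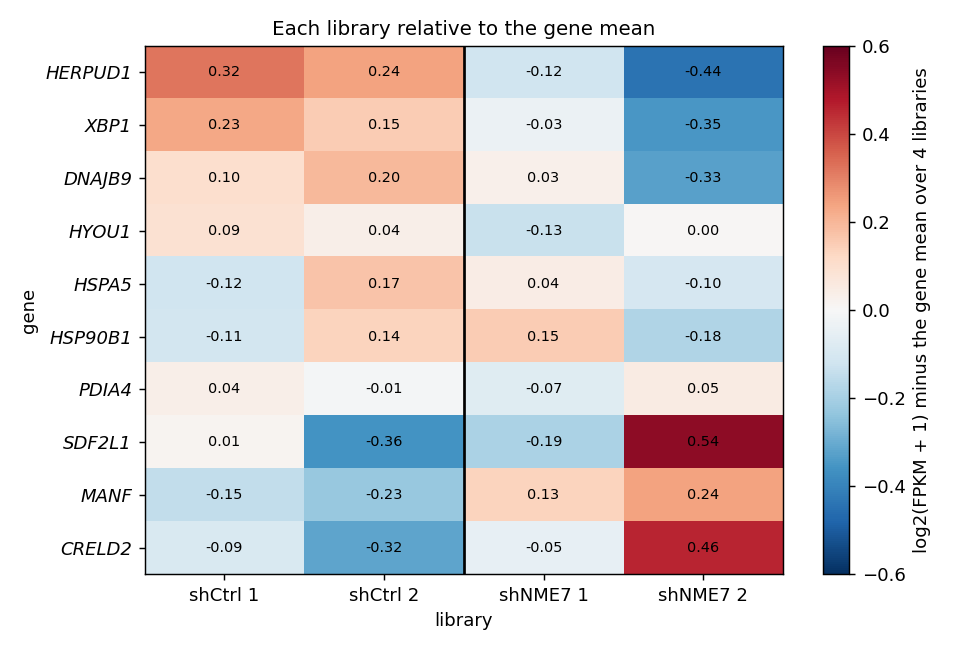
Each gene's log2(FPKM + 1) in a library minus its mean over the 4 libraries (colour and printed value), with genes as rows and libraries as columns. The shNME7 2 column holds the lowest and the highest value, -0.44 for HERPUD1 and 0.54 for SDF2L1. In HERPUD1, XBP1, DNAJB9, SDF2L1, CRELD2, MANF and HSP90B1, shNME7 1 lies nearer to the controls than shNME7 2. In HYOU1 and PDIA4 it lies further away (-0.13 and -0.07).

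The 2 shNME7 libraries differed from each other by more than the 2 controls did in 9 of 10 members, HSPA5 being the exception. shNME7 2 minus shNME7 1 ran from -0.36 for DNAJB9 to 0.73 for SDF2L1 (log2), with an SD over members of 0.38, and shCtrl 2 minus shCtrl 1 from -0.37 to 0.29, with an SD of 0.20. The corresponding SDs over all tested genes were 0.36 and 0.32. In 3 members, HERPUD1, XBP1 and MANF, the difference between the groups was larger than both differences between replicates. Neither this count nor that of 9 of 10 was set beside its share over all tested genes, so both are descriptions only. Ratios within a library remove any scaling of the whole library, and the pairs given were picked after their values were seen. The ratio of MANF to HERPUD1 was 0.574 and 0.573 in the 2 controls, and 0.971 in shNME7 1 and 1.33 in shNME7 2. The ratio of HERPUD1 to HSPA5 was 0.224 and 0.174 in shCtrl against 0.146 and 0.127 in shNME7. Summed over the 10 genes the level was 553 and 597 FPKM in shCtrl against 577 and 530 in shNME7, with overlap between the groups, and this sum is mostly HSPA5 and HSP90B1. Each gene counted alike, the median of the 10 centred log2 values was 0.03 and 0.09 in shCtrl against -0.04 and -0.05 in shNME7. These medians did not overlap, with a within-group SD of 0.03 from 2 libraries per group, although single members lay on both sides. The same measure was not taken over other sets of genes, so this is a description only. The median of the member differences turned to 0.02 without shCtrl 2. No test was made of these medians.

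GC content moved with the differences. Over all tested genes Spearman rho between GC content and the group difference was 0.41 (the genes share 4 libraries and are not independent), and over the 10 members rho was 0.52. The GC-poorest members were DNAJB9, HSP90B1 and XBP1, with 40.4%, 41.2% and 41.5% in their longest transcript. SDF2L1 was the GC-richest at 65.5%, and the median tested gene had 48.1%. With a trend on GC content and exon length removed from each library, SDF2L1 went from 0.35 to 0.12. HERPUD1 stood at -0.54, XBP1 at -0.36, DNAJB9 at -0.27, MANF at 0.30 and CRELD2 at 0.36. HSP90B1 changed sign, to 0.04. In this fit no member passed either, the smallest limma-trend adjusted p being 0.250 for MANF and 0.254 for HERPUD1.

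**Figure D3:**
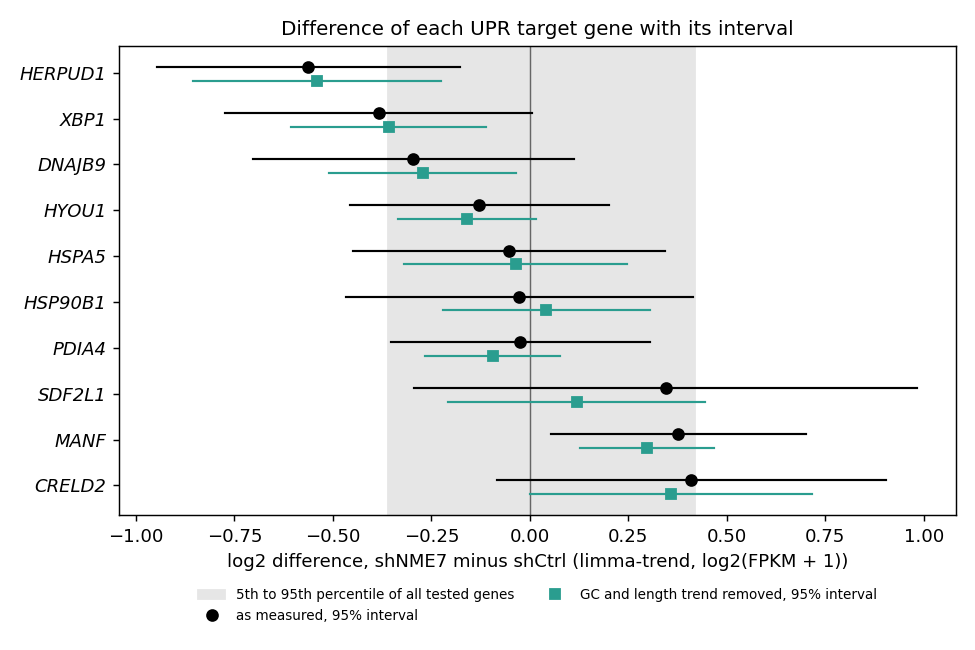
Log2 difference between shNME7 and shCtrl (horizontal axis) for each gene, with its 95% interval, as measured (black circles) and with the GC and length trend removed (green squares); the grey band holds the 5th to 95th percentile of all tested genes, -0.36 to 0.42. The intervals of HERPUD1 and MANF leave out 0 in both fits before adjustment for the number of genes, and SDF2L1 is the member that moves most between the fits.

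Beside the members, the sensors and their processing enzymes were read from a list of 6 genes, all tested. Of these, 5 had a lower mean in shNME7, beside 47.8% of all tested genes. None passed in limma-trend (1 at an unadjusted p under 0.05, beside 6.68% of tested genes) or limma-voom. ERN1, the IRE1 gene, stood at 2.36 and 2.13 FPKM in shCtrl against 1.37 and 1.26 in shNME7. Its shNME7 values were well apart from the controls, with a log2 difference of -0.49 (SE 0.17, limma-trend adjusted p 0.728), at a low level where this scale understates changes. EIF2AK3, the PERK gene, stood at 5.60 and 5.31 FPKM against 4.79 and 4.64, a log2 difference of -0.18 (SE 0.13). ATF6 stood at 11.4 and 12.9 FPKM in shCtrl against 13.2 and 10.9 in shNME7, and its relative ATF6B at 21.4 ± 3.21 and 23.7 ± 2.04. MBTPS1 and MBTPS2, which encode the Golgi proteases that cut ATF6, had differences of -0.05 and -0.11. Among the sensor genes, those of IRE1 and PERK had both shNME7 libraries below both controls, beside 18.4% of all tested genes, and that of ATF6 overlapped. With the GC and length trend removed, ERN1 stood at -0.45 and EIF2AK3 at -0.12. The median of the list went from -0.08 to 0.00.

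The other genes of ER protein handling centred near 0. Of 24 other folding genes, all tested, 15 had a higher and 9 a lower mean, with a median of 0.05, and 19 overlapped between the groups, beside 63.8% of all tested genes. FKBP2, a prolyl isomerase gene, had the largest difference, at 24.5 and 16.4 FPKM in shCtrl against 22.8 and 39.9 in shNME7 (log2 difference 0.57), again with shNME7 2 apart from the rest. HSPA13, an Hsp70-like gene, stood at 23.5 and 26.4 FPKM in shCtrl against 21.6 and 16.2 in shNME7, and CANX, the lectin chaperone calnexin, at 231 ± 33.7 and 185 ± 25.2. Of 20 genes of ER-associated degradation, 19 were tested, 8 higher and 11 lower with a median of -0.01, and 14 overlapped. FAF2, a membrane recruiter of the p97 ATPase, stood at 22.5 ± 2.71 and 17.0 ± 0.166 FPKM, the selenoprotein gene SELENOK at 14.6 ± 1.57 and 18.5 ± 2.50, and SEL1L, the scaffold of the HRD1 ligase, at 10.2 ± 1.49 and 8.55 ± 0.868. Of 22 translocation and vesicle transport genes, all tested, 14 were higher and 8 lower with a median of 0.05. Of these 22, 11 overlapped. Both shNME7 libraries were above both controls in 7, beside 17.8% of all tested genes, and below in 4, beside 18.4%. SEC61B, a subunit of the translocation channel, stood at 44.4 and 35.4 FPKM in shCtrl against 49.3 and 64.9 in shNME7 (log2 difference 0.50), SEC63 at 18.4 ± 2.89 and 14.3 ± 2.74, and the signal peptidase subunit gene SPCS2 at 20.3 ± 1.63 and 16.0 ± 1.07. In these 3 lists limma-trend and limma-voom called 0 genes. Unadjusted p was under 0.05 in limma-trend for 0, 1 and 1 of them, beside 6.68% of all tested genes. In limma-voom it was for 2, 1 and 1, beside 8%.

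Among the lists, the targets of PERK and ATF4 had the lowest median. All 23 listed genes were tested. In all 23 both shNME7 libraries were below both controls, beside 18.4% of all tested genes. The differences ran from -1.40 to -0.30, with a median of -0.57. This list was chosen with that pattern already known and so gives no independent evidence of its direction, its range or its median. Counts of members set against its range are therefore descriptions only. SLC7A11, the cystine transporter gene, stood at 22.2 and 24.9 FPKM in shCtrl against 10.2 and 6.71 in shNME7. CHAC1 stood at 29.6 and 24.1 against 11.5 and 8.27, and TRIB3, a pseudokinase gene, at 114 and 92.0 against 47.1 and 45.6. limma-trend called 0 of the 23 and limma-voom 4, all lower: SLC7A11, CHAC1, TRIB3 and STC2. Over all genes limma-voom called 0.132%. Of these 4, CHAC1 and STC2 were not called once GC and length were corrected for, although their differences did not shrink. The limma-voom log2 difference, on another scale than the range above, went from -1.46 to -1.68 for CHAC1 (limma-voom adjusted p 0.0704 after correction). For STC2 it went from -1.02 to -1.04 (0.0948). Of the 10 ATF6 and XBP1 targets, 2 had a difference as low as the highest of the ATF4 list, HERPUD1 and XBP1. DNAJB9, at -0.295 (SE 0.17), missed that highest value of -0.304 by less than its SE, so this count rests on a narrow margin. The ATF4 list's range also held genes of the other lists, among them ERN1, HSPA13, FAF2, SEC63 and CANX (-0.49, -0.39, -0.38, -0.35 and -0.32). The median with the GC and length trend removed was -0.67 for the ATF4 list and -0.06 for the 10 members. The difference between the 2 lists was not tested.

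**Figure D4:**
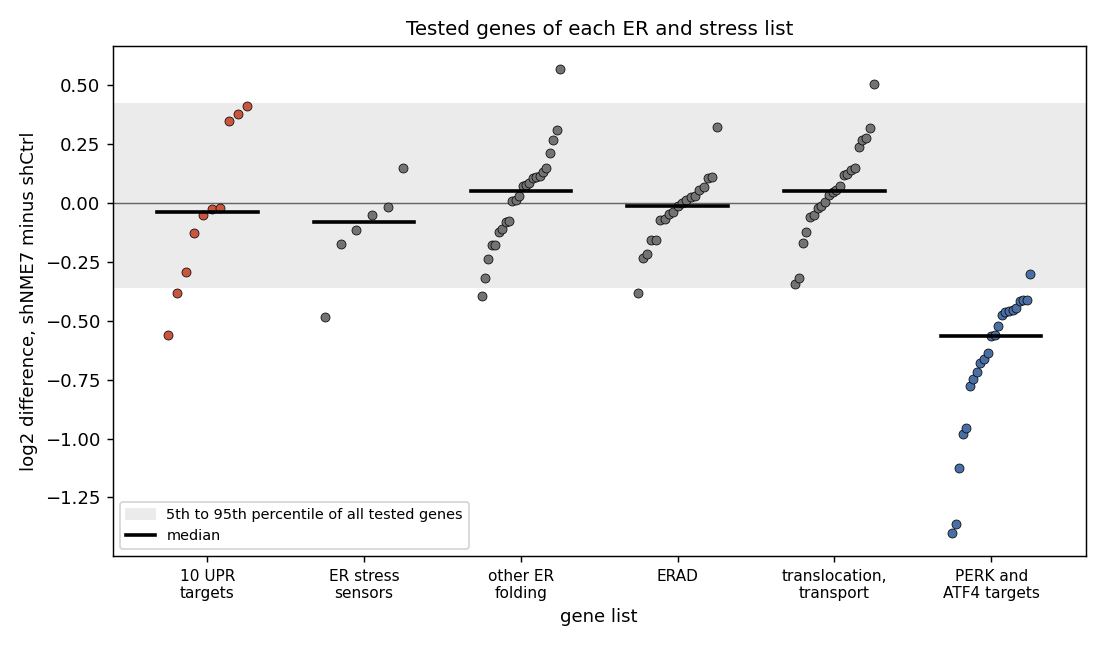
Log2 difference between shNME7 and shCtrl (vertical axis) of every tested gene in 6 lists, with the list median as a black bar and the 5th to 95th percentile of all tested genes as a grey band. The PERK and ATF4 targets, chosen with this pattern already known, lie wholly below 0 with a median of -0.57. The 10 members spread on both sides with a median of -0.04.

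Members with an ERSE, and those with an ERSE-II, had differences of both signs. The 4 members with an ERSE ran from -0.38 for XBP1 to 0.41 for CRELD2, and the 3 with an ERSE-II from -0.56 for HERPUD1 to 0.35 for SDF2L1. HERPUD1, which alone had a CARE, was the lowest of the 10, and HYOU1, which alone had a UPRE, stood at -0.13; 1 member each allows no comparison. Outside the 10, 37 other gene symbols had an ERSE or ERSE-II in a window, of which 30 were in the tables and 23 were tested. Of these 12 had a higher and 11 a lower mean, with a median of 0.00, and limma-trend and limma-voom called 0, with 0 at an unadjusted p under 0.05 in both. They include CALR and PDIA6, at 0.01 and 0.07, and CANX at -0.32. CRELD2 shares its ERSE with the head-to-head gene ALG12, a mannosyltransferase gene, which stood at 2.57 and 2.19 FPKM in shCtrl against 2.21 and 3.10 in shNME7, a log2 difference of 0.11.

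Some members share transcribed bases with neighbouring genes, mostly on the opposite strand, and whether the authors' counting used strand is not given in the sources used here. DNAJB9 overlaps exons of THAP5 and PNPLA8 over 282 bases, and THAP5 stood at 7.63 and 8.71 FPKM in shCtrl against 8.70 and 5.14 in shNME7. HSP90B1 overlaps TTC41P and C12orf73 on the opposite strand and MIR3652 on its own strand, over 357 bases in all, and none of these 3 was above 8.96 FPKM. HYOU1 overlaps AP003392.3 over 666 bases, a gene listed at 0 in every library, and CRELD2 overlaps ALG12 over 168 bases. Pseudogenes were low, at most 0.771 FPKM for XBP1P1 and 0.338 for the copies of HSP90B1. The part of these overlaps in the differences of DNAJB9 and CRELD2 was not tested. The 5 genes with a mean of at least 10 FPKM whose 4 centred values lay nearest to the members' median profile, of 4863 compared by Euclidean distance over 4 libraries, were DCAF12, PAM, KLHL4, PAIP1 and PYGO2, with differences from -0.12 to -0.08.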

How the data were processed

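The values the authors deposited are FPKM (fragments per length of gene and size of library), 1 table per library over 58735 genes, per the file headers. HISAT2 2.0.5 and build hg18 are listed in the submitters' processing notes. The counting tool and annotation were not given in the sources used here. GENCODE release 29 (GRCh38) held all 58735 IDs and gave names, exon lengths and GC content of the longest transcript. No coordinate of the deposited tables was used. FPKM times exon length gave whole multiples of 1 step per library (within 0.01 of a whole number for 100% of genes above 0), hence the recovered fragments. A count of 0 allows up to 3 fragments, 0.177 to 0.202 CPM, which covers counting error only.

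Groups came from the sample titles. The test was limma-trend (limma 3.58.1, R 4.3.3) on log2(FPKM + 1), two-sided, without covariates, on the 12866 genes with a mean of at least 1 FPKM, adjusted by Benjamini-Hochberg over all of them at 0.05. This scale understates the change of low genes. limma-voom used recovered fragments (mean of at least 10, median-ratio scaling). Other alternatives were a pseudocount of 0.1, no filter, a replicate block, each library left out, and removal of a loess trend on GC and length (span 0.3). A further 7 fits were chosen once the data had been seen: limma-voom with each library left out, limma-voom with a replicate block, limma-trend on protein-coding genes alone and a crossed replicate block. Both tests were also run on simulated data, with changes larger than any member's difference and without a GC trend. That run therefore does not bear on differences of the size seen in the members. The members and lists were chosen with earlier results of these data known. All members and sensors are named, and up to 3 genes per other list with the largest change and at least 5 FPKM in the higher group. Other genes were named after their values were seen.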

Additional observations from a re-analysis of the deposited data

How the results depend on the processing

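Limits: 2 libraries per group, replicates that may be technical, and a GC trend between libraries bound what these values can show. HERPUD1, XBP1, DNAJB9, HYOU1, MANF and CRELD2 kept their direction in each of the 10 alternatives and in the 7 added after seeing the data. Their groups did not overlap, so in limma-trend no left-out library and no change of pseudocount could turn the sign. A replicate block, the filter and the restriction to protein-coding genes leave the limma-trend difference unchanged. The direction could have changed only in the limma-voom fits and with the GC and length trend removed. Once the trend on GC and length was taken out, HSP90B1 changed sign (0.042 by limma-trend, 0.070 by limma-voom). Leaving out 1 library at a time, the log2 difference of HSPA5 ran from -0.20 to 0.090, that of HSP90B1 from -0.19 to 0.14, that of PDIA4 from -0.084 to 0.036 and that of SDF2L1 from -0.018 to 0.71. The median over the 10 ran from -0.12 without shCtrl 1 to 0.021 without shCtrl 2. The number of members called was 0, and 0 to 3 with 1 library left out, the 3 without shNME7 1. The number of genes called was 0 with all libraries (859 at an unadjusted p under 0.05), 112 to 632 with 1 library left out (632 without shNME7 1), 20 in limma-voom, 1 after GC and length correction of limma-trend and 12 after that of limma-voom. The replicate block gave 122 calls over all genes and 0 among the members. Same-numbered libraries deviated in opposite directions (correlation -0.35 over tested genes), which gives no sign that the numbers pair the samples. With 2 libraries per group this is 1 contrast over genes that share a GC trend, so it cannot exclude pairing. The crossed pairing, added after seeing the data, gave 0 calls. The other 6 added fits follow. limma-voom called 37 genes without shCtrl 1, 30 without shCtrl 2, 420 without shNME7 1 and 41 without shNME7 2, and members (3) only without shNME7 1. The median over the 10 was -0.13 without shCtrl 1, 0.016 without shCtrl 2 and -0.098 without shNME7 1. In these fits HSPA5 ran from -0.20 to 0.086 (0.014 without shNME7 2), HSP90B1 from -0.20 to 0.14 (0.091 without shCtrl 2), PDIA4 from -0.090 to 0.034 and SDF2L1 from -0.022 to 0.72. limma-voom with the replicate block called 34 genes and limma-trend on protein-coding genes alone 11, each with 0 members. No cause of these changes was tested.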
